A study of Mus musculus with 20 samples.

Results

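Fabp7 and Fabp12 are paralogous genes for fatty acid binding proteins. They are 2 of 9230 genes named on the array, found by symbol in the platform annotation. They were chosen by their measured retina-minus-cortex differences, which lay near opposite ends of the tissue comparison. Each had 1 probe of the 10500, probe 2739 for Fabp7 (Entrez gene 12140) and probe 1102 for Fabp12 (Entrez gene 75497). Both probes had a value above 0 on all 20 arrays and passed the filter on missing values.

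Total RNA was hybridised to 20 1-colour GE Healthcare (Amersham) CodeLink arrays, on which biotin-labelled target is read as 1 intensity per probe. At each of 2 sites, called site 2 and the first site, 5 arrays carried adult C57/B6 retina and 5 carried Swiss-Webster cortex from postnatal day 1. Each tissue was a single pool of RNA hybridised repeatedly, so a p-value here measures spread between arrays and not between animals. Tissue, strain and age differ together between the pools and cannot be told apart. In RNA of whole tissue, fewer cells of a type and less RNA per cell cannot be told apart either.

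Fatty acid binding proteins are small cytosolic proteins that fold into a barrel and carry a long-chain fatty acid through the water of the cell, to membranes, to enzymes or to receptors in the nucleus. Fabp7, also called brain lipid binding protein, is a classic marker of radial glia, the progenitor cells along which newborn cortical neurons migrate, and it binds omega-3 fatty acids such as docosahexaenoic acid. Fabp12 is a less studied member of the family whose transcript has been described in rodent retina and testis. Photoreceptor outer segments are among the membranes richest in docosahexaenoic acid.

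The arrays matched their tissue labels by marker genes. All 9 measured photoreceptor genes were called higher in retina and all 5 measured cortical neuron genes were called higher in cortex at both sites. By the same rule, given further on, 11.1% of all tested probes were higher in retina at site 2 and 11.9% at the first site. For cortex the shares were 13.5% and 13.0%. Array medians ran from 0.927 to 0.963 intensity units, on a scale with no physical unit, and precision is limited by how many arrays there are. Cortex replicate 5 of site 2 stood apart from its group. On it, 9.11% of probes lay more than 1 log2 unit from the mean of the other 4 arrays, against 1.81% to 4.69% on the other 19 arrays.

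The promoter of Fabp7 is shown because several of its known regulators were measured on the same arrays and are described further on. The 250 bases before its annotated start, taken from RefSeq on build GRCm38.p6, are chr10:57784673-57784922 on the plus strand. Capitals mark a TTCCCA at bases 249 to 244 before the start, the reverse complement of the core TGGGAA bound by the Notch effector RBPJ, and TTGGCTTTTTGCC at bases 55 to 43, which fits the nuclear factor I palindrome without its last 2 letters (TTGGC, any 5 letters, GCC).
Fabp7: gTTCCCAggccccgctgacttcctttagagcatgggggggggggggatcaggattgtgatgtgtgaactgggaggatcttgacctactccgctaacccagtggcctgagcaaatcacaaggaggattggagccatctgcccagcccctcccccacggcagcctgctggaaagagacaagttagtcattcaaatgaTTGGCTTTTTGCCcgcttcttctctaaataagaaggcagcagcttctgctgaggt
On both strands, TGGGAA occurred in 21.6% of 32851 promoter windows of this length and the shortened palindrome in 1.22%. The full palindrome, which ends in GCCAA and contains the shortened one (0.0365% of windows), and the POU octamer ATTTGCAT (1.6%) had 0 matches in this window. These motifs were chosen with the sequence in view, so a match is only a description of its letters.

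Fabp12, the retinal paralogue, read 30.8, 30.9, 33.5, 31.7 and 37.2 on the 5 retina arrays of site 2, against 0.0463, 0.0411, 0.0272, 0.128 and 0.0592 on the 5 cortex arrays. At the first site it read 50.4, 48.7, 40.8, 48.4 and 44.7 in retina, against 0.0957, 0.442, 0.350, 0.265 and 0.0356 in cortex. The retina arrays lay far above every cortex array at both sites, and the retina arrays agreed closely among themselves while the cortex arrays did not. The SD over 5 arrays was 0.11 log2 in retina and 0.82 in cortex at site 2, and 0.12 in first-site retina and 1.51 in first-site cortex.

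The retina-minus-cortex difference of Fabp12 was 9.29 log2 at site 2, or 626-fold, and 8.10 at the first site, or 274-fold (SE 0.52 each). This contrast chose the gene, so the differences are a description without a test. Averaged over the sites it was the largest towards retina among 9083 tested genes (8.69 log2), ahead of Rp1, a microtubule protein of the photoreceptor outer segment, and Sag, rod arrestin.

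The size of the Fabp12 fold rests on its cortex values. Of the 5 cortex arrays, 2 at site 2 and 1 at the first site read below the 5th percentile of all positive intensities (0.0448). All 5 at site 2 and 2 at the first site read below the 25th percentile (0.195). With every intensity raised to at least that 25th percentile, the differences were 7.39 and 7.40 log2, or 168-fold at site 2 and 169-fold at the first site. Averaged over the sites, Fabp12 (7.40) then stood below Sag (7.82) and Rp1 (7.46), so its place at the head of the order depends on its dim cortex readings.

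Fabp7, the brain paralogue, ran the other way. It read 1.69, 1.53, 1.57, 1.72 and 1.64 in retina at site 2, against 89.7, 99.1, 99.5, 85.2 and 117 in cortex. At the first site it read 2.70, 2.18, 2.58, 3.02 and 3.11 in retina, against 67.1, 65.1, 65.8, 72.8 and 104 in cortex. Every cortex array lay above every retina array. Over all tested probes, 24.6% were called different between the tissues at site 2 and 24.9% at the first site. Arrays of these 2 tissues failed to overlap for 48.2% of all tested probes at site 2 and 53.3% at the first site, and nothing is read from the members' separation, for which they were chosen.

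The retina-minus-cortex difference of Fabp7 was -5.90 log2 at site 2 and -4.77 at the first site (SE 0.12 each), so that cortex was 59.9-fold and 27.3-fold higher. Averaged over the sites (-5.34) it was the 6th largest of the 9083 tested genes towards cortex. Its neighbours in that order were Neurod6, a factor of cortical excitatory neurons, and Avp, the vasopressin precursor, above it, and Myc, a growth-promoting transcription factor, and Mki67, the proliferation antigen Ki-67, after it. This place also rests on dim readings, here of the other genes in retina. With intensities raised to the 25th percentile Fabp7 kept -5.34 and Neurod6 -6.21, while Avp stood at -3.76, Myc at -4.38 and Mki67 at -4.07.

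Unlike Fabp12 in cortex, Fabp7 in retina was not at the dim end of the arrays. Its retina intensity exceeded 59.8% to 62.0% of probes at site 2 and 65.8% to 72.5% at the first site. In cortex it reached 33.0% to 52.0% of the array maximum at site 2 and 56.5% to 95.3% at the first site. Whether a ceiling of the scanner touched these cortex values was not tested.

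**Figure D1:**
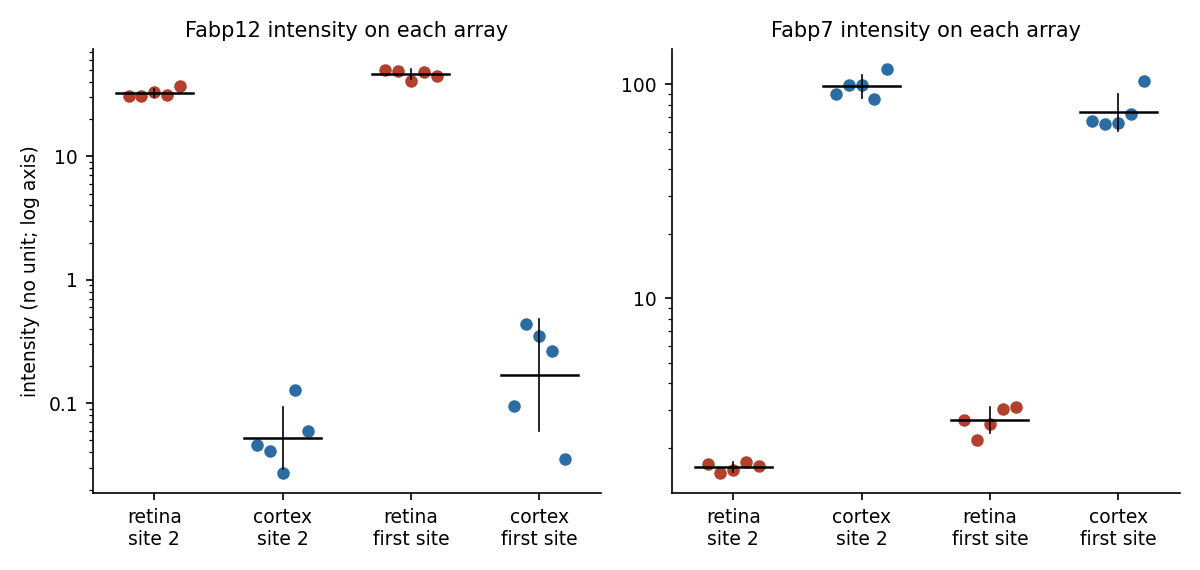
Intensity of Fabp12 (left) and Fabp7 (right) on each of the 20 arrays, on log axes with separate scales. Points are arrays in the order of their replicate numbers, horizontal lines are geometric means and vertical lines span 1 SD of the log2 values on either side. Fabp12 ran from 30.8 to 50.4 in retina against 0.0272 to 0.442 in cortex, and Fabp7 from 1.53 to 3.11 in retina against 65.1 to 117 in cortex.

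**Figure D2:**
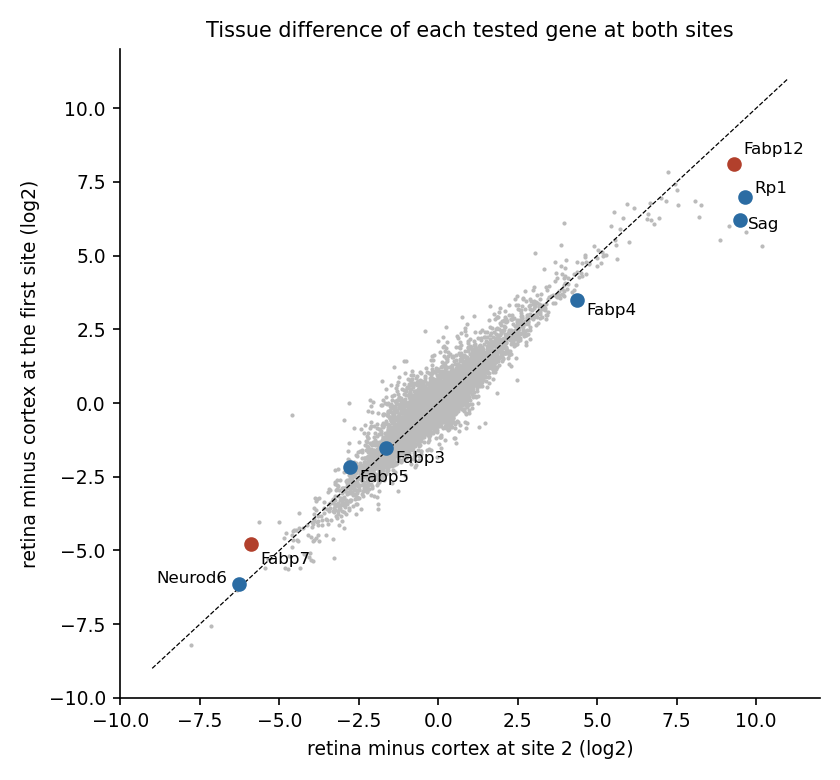
Retina-minus-cortex log2 difference at site 2 (horizontal) and at the first site (vertical) for the 9083 tested genes, with the line of equal difference dashed. Red points are Fabp12 (9.29 and 8.10) and Fabp7 (-5.90 and -4.77), and blue points are other genes named in the text.

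The comparison between sites asked how far the same RNA gave the same reading at another site. The 2 genes were chosen on the tissue difference and not on a difference between sites. A probe was called when the limma p-value, adjusted by the Benjamini-Hochberg method over all 10339 tested probes, was under 0.05 and the 2 means lay 2-fold or more apart. Between sites, 6.24% of probes were called in retina and 7.21% in cortex. Neither gene was called in retina, and in cortex Fabp12 was called and Fabp7 was not.

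In retina, Fabp7 had a geometric mean of 1.63 at site 2 (SD 0.07 log2, n = 5) and 2.70 at the first site (SD 0.20 log2, n = 5). All 5 site 2 arrays read below all 5 first-site arrays and 39.1% of tested probes were likewise without overlap between sites in retina. The difference of -0.73 log2 (SE 0.12) passed the adjusted p in limma (1.1e-04) but was under 2-fold. In cortex, Fabp7 averaged 97.5 at site 2 (SD 0.18 log2) and 73.7 at the first site (SD 0.28 log2), again over 5 arrays each. There the arrays of the sites overlapped, whereas 31.9% of tested probes had no overlap. The difference was 0.40 log2 (SE 0.12, adjusted p in limma 0.013), again under 2-fold. After quantile normalization, which forces equal intensity distributions on all arrays, it was 0.09 (adjusted p in limma 0.508, and 5.5e-04 to 0.508 over 30 alternatives).

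The tissue difference of Fabp7 was larger at site 2. The retina-minus-cortex difference was lower by 1.13 log2 at site 2 than at the first site (-1.13, SE 0.18, 95% interval -1.51 to -0.76, adjusted p in limma 0.0021). This was called, as were 0.725% of tested probes for the same contrast. After quantile normalization it was -0.75 and under 2-fold (adjusted p in limma 0.0088, and 9.2e-05 to 0.0088 over 29 alternatives). Array maxima were 225 to 272 in site 2 cortex and 103 to 125 in first-site cortex. The part of this unlike bright end in the Fabp7 difference was not tested. Among the 1089 probes called higher in cortex at both sites, 41.9% had a larger difference at site 2. With enlargement at site 2 counted as positive, their median change was -0.06 log2 and the 95th percentile 0.57. On that scale Fabp7 stood at 1.13.

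The Fabp12 means at site 2 were below those at the first site in both tissues, with a call in cortex. In retina it averaged 32.7 at site 2 and 46.5 at the first site, and the arrays did not overlap, as for 39.1% of tested probes. The difference of -0.51 log2 (SE 0.52, 95% interval -1.59 to 0.58) was under 2-fold and not called (adjusted p in limma 0.447). In this model the error of a gene is shared by all 4 groups, so the wide scatter of the dim cortex arrays enters the retina error. With only the retina arrays fitted the same difference had an adjusted p in limma of 4.9e-04, and with intensities raised to the 25th percentile 0.024, still under 2-fold (4.9e-04 to 0.604 over 30 alternatives).

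In cortex, the geometric means of Fabp12 were 0.0523 at site 2 and 0.169 at the first site. The difference of -1.70 log2 (SE 0.52, adjusted p in limma 0.012) was called, although the arrays of the sites overlapped. The call ended with intensities raised to the 25th percentile (-0.49), with 0.1 added before the logarithm (-0.93) and with only these 2 groups in the fit (adjusted p in limma 0.069, and 1.8e-04 to 0.069 over 30 alternatives). The tissue difference of Fabp12 was larger at site 2 by 1.19 log2 (SE 0.73, 95% interval -0.34 to 2.72), which was not called (adjusted p in limma 0.353).

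**Figure D3:**
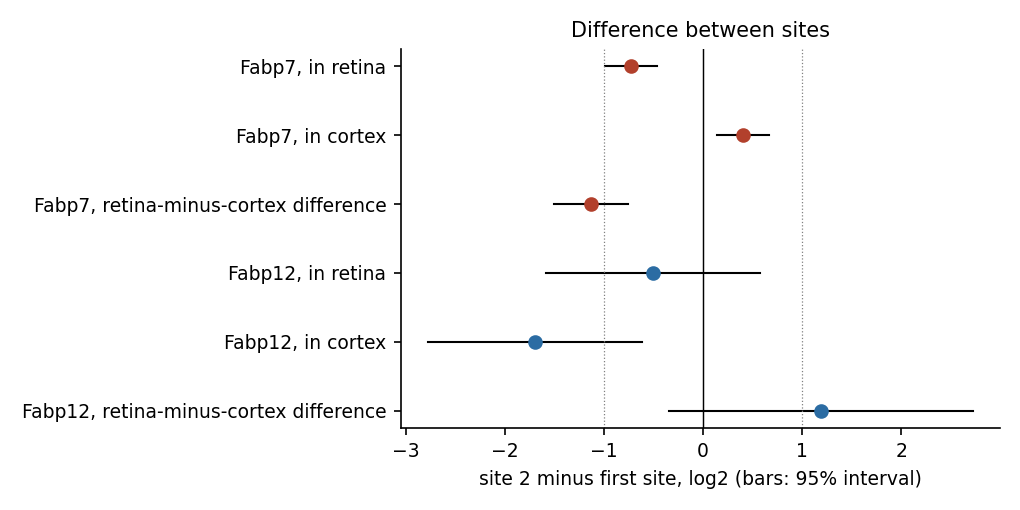
Site 2 minus first site on the log2 scale for Fabp7 (red) and Fabp12 (blue), in retina, in cortex and for the retina-minus-cortex difference. Points are limma estimates from all 20 arrays, bars are 95% intervals and dotted lines mark 2-fold, and the Fabp7 tissue difference (-1.13) and Fabp12 in cortex (-1.70) were called.

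The scatter of Fabp12 among the first-site cortex arrays ran in the same order as that of photoreceptor transcripts on those arrays. Fabp12 was highest on cortex replicate 2 (0.442), then on replicates 3 (0.350), 4 (0.265), 1 (0.0957) and 5 (0.0356). The summed intensity of 9 photoreceptor genes was 15.1, 13.1, 10.5, 6.5 and 4.5 on the same arrays in the same order. Of these 9 genes, 8 ranked the 5 arrays exactly as Fabp12 did, and 0 did so among the cortex arrays of site 2. This order was noticed in the data and has no test, and the share of all tested genes in the same order was not counted.

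As a share of the retina mean of the same site, Fabp12 stood at 0.0767% to 0.951% on first-site cortex arrays. Rp1 stood at 0.246% to 1.53%, Sag at 0.498% to 2.56%, and Gnat1, rod transducin, at 0.840% to 4.86%. On the site 2 cortex arrays the shares were 0.0833% to 0.390% for Fabp12, 0.0759% to 0.238% for Rp1, 0.121% to 0.163% for Sag and 0.0586% to 0.124% for Gnat1. The highest share of each of these 4 genes was thus on a first-site array. Over the photoreceptor list, the retina-minus-cortex difference was called more positive at site 2 for 5 of 9 genes, as it was for 0.271% of all tested probes. Recoverin (Rcvrn), a calcium sensor of photoreceptors, stood at 2.09% to 3.28% at site 2 and 2.81% to 3.53% at the first site, and was the gene in another order, lowest on replicate 1. The part of photoreceptor signal in the Fabp12 values of cortex was not tested.

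**Figure D4:**
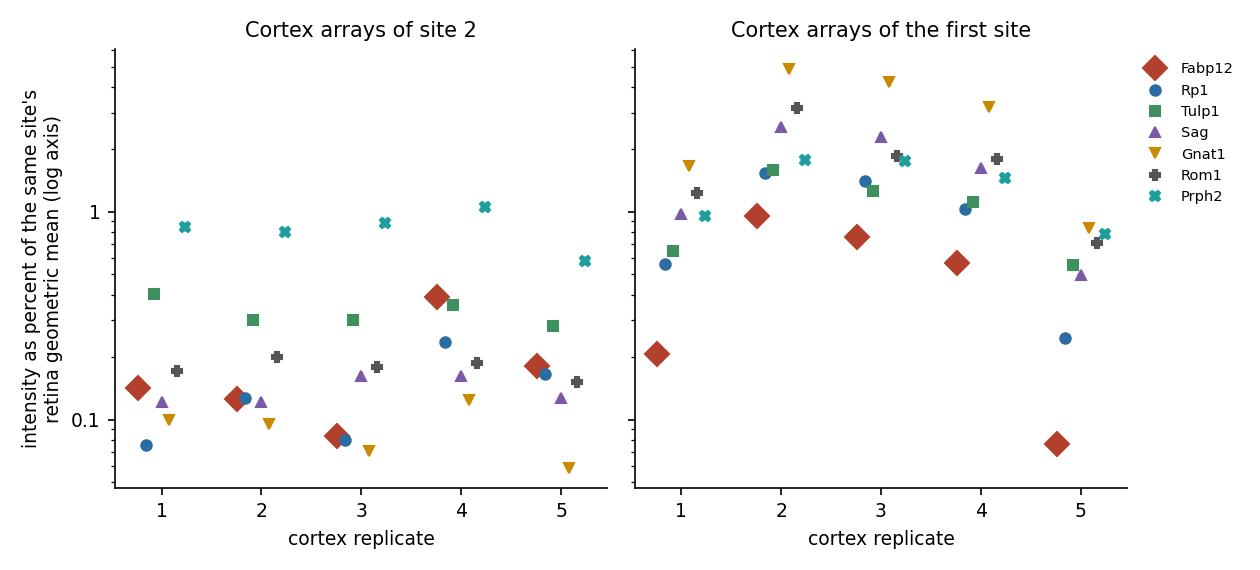
Intensity on each cortex array as a percent of the geometric mean of the retina arrays of the same site, on a log axis, for Fabp12 (red diamonds) and 6 photoreceptor genes. Replicate numbers only name the arrays. At the first site Fabp12 ran from 0.0767% on replicate 5 to 0.951% on replicate 2, and the 6 genes drawn (Rp1, Tulp1, Sag, Gnat1, Rom1 and Prph2) were also highest on replicate 2 and lowest on replicate 5.

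The genes whose log2 intensities followed each member most closely over the 20 arrays are given as a description, since the 4 groups set most of each correlation. For Fabp12 they were Tulp1, a trafficking protein of photoreceptors, Rp1, Neurod4, a retinal transcription factor, Opn1mw, the medium-wavelength cone opsin, and Prph2, a disc rim protein (Pearson r 0.992 to 0.989). With group means removed the correlations were 0.84 for Tulp1, 0.96 for Rp1, 0.86 for Neurod4, 0.68 for Opn1mw and 0.78 for Prph2. Fabp12 scattered far more among cortex arrays than among retina arrays, so these values rest mainly on its dim cortex readings. Of 9 photoreceptor genes, 0 ranked the site 2 retina arrays as Fabp12 did, and 1 so ranked the first-site retina arrays. The most opposite were Plcb1, Nr2f1 and Nnat (r -0.984 to -0.982).

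For Fabp7 the closest were Gap43, a growth cone protein of extending axons, Idh1, a cytosolic dehydrogenase, Csrp2, Pafah1b3 and Stmn4, a microtubule regulator of neurons (r 0.997 to 0.994). Gap43 read 7.80 to 8.51 in retina and 99.4 to 126 in cortex at site 2, and 8.74 to 10.8 in first-site retina and 84.4 to 99.3 in first-site cortex. It therefore shared the shape of Fabp7, lower in retina and higher in cortex at site 2. With group means removed the correlation of Gap43 with Fabp7 was 0.47, and that of Stmn4 was 0.07. The most opposite were Pcp2, a protein of bipolar cells, Reep6, a rod photoreceptor protein, and Pla2r1 (r -0.996 to -0.995).

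Of 16 listed genes for intracellular lipid binding proteins, 11 had a probe, and 9 remained without Fabp7 and Fabp12. Of these 9, 1 was called higher in retina, 2 were called higher in cortex and 6 were not called, at each site. Over all tested probes 11.1% were called higher in retina and 13.5% higher in cortex at site 2, and 11.9% and 13.0% at the first site, so 1 and 2 of 9 genes are close to the share of all probes. The median difference of the 9 genes was -0.64 log2 at site 2 and 0.02 at the first site, against -0.05 and -0.04 over all probes.

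Fabp4, the fatty acid binding protein of adipocytes, macrophages and small vessels, was the family member called higher in retina. It read 1.70, 1.51, 1.47, 1.63 and 1.97 in retina at site 2, against 0.0848, 0.0868, 0.0862, 0.0718 and 0.0727 in cortex. At the first site it read 0.925, 1.16, 1.03, 1.27 and 1.2 in retina, against 0.0695, 0.113, 0.126, 0.115 and 0.0817 in cortex. The tissues did not overlap, nor did they for 48.2% of all tested probes at site 2 and 53.3% at the first site. Fabp4 in retina was 20.5-fold higher at site 2 (4.36 log2, SE 0.14, adjusted p in limma 3.6e-15) and 11.3-fold at the first site (3.50, SE 0.14, adjusted p in limma 9.4e-14). With intensities raised to the 25th percentile the folds were 8.44 and 5.70. Of the other adipocyte markers Adipoq, adiponectin, was measured and stood at 0.0491 to 0.168 in retina and 0.0596 to 0.144 in cortex at site 2, with no call at either site.

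Fabp5, the epidermal type, which is also expressed in neural progenitors and neurons, was higher in cortex. It read 9.08 to 10.8 in retina and 56.9 to 76.0 in cortex at site 2, and 10.4 to 14.4 in first-site retina and 46.8 to 62.8 in first-site cortex. The difference was -2.78 log2 at site 2 and -2.17 at the first site (SE 0.10 each, adjusted p in limma 1.6e-14 and 6.5e-13). At each site 5 of 5 cortex arrays lay above every retina array. The tissues likewise failed to overlap for 48.2% of all tested probes at site 2 and 53.3% at the first site.

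Fabp3, the heart type, which is also found in mature neurons, was higher in cortex by a smaller factor. It read 6.49 to 6.94 in retina and 18.7 to 22.3 in cortex at site 2, and 7.08 to 8.4 in first-site retina and 21.3 to 24.6 in first-site cortex. Its difference was -1.64 log2 at site 2 and -1.53 at the first site (SE 0.07 each, adjusted p in limma 6.1e-14 and 1.8e-13). Both chosen paralogues had larger tissue differences than the called genes of this list at each site. This contrast chose the paralogues, so nothing is read from that order.

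The other 6 measured members were dim in both tissues and not called. Fabp1, the liver type, differed by -0.08 log2 at site 2 and 0.20 at the first site, and Fabp2, the intestinal type, by -0.53 and -0.25. Fabp6, the ileal bile acid binding protein, differed by -0.81 (1 retina array of site 2 had no value) and 0.02, and on cortex replicate 5 of site 2 it read 1.51 against 0.286 to 0.397 on the other 4 arrays. Fabp9, the testis type, differed by -0.64 and 0.46. Rbp2 and Rbp7, cellular retinol binding proteins, differed by -1.43 and 0.26 at site 2 and by -0.86 (1 retina array had no positive value) and 0.91 at the first site. Rbp2 read 2.89 on cortex replicate 5 of site 2 against at most 0.0703 on the other 4. Rbp7 was called at the first site after quantile normalization (1.04).

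**Figure D5:**
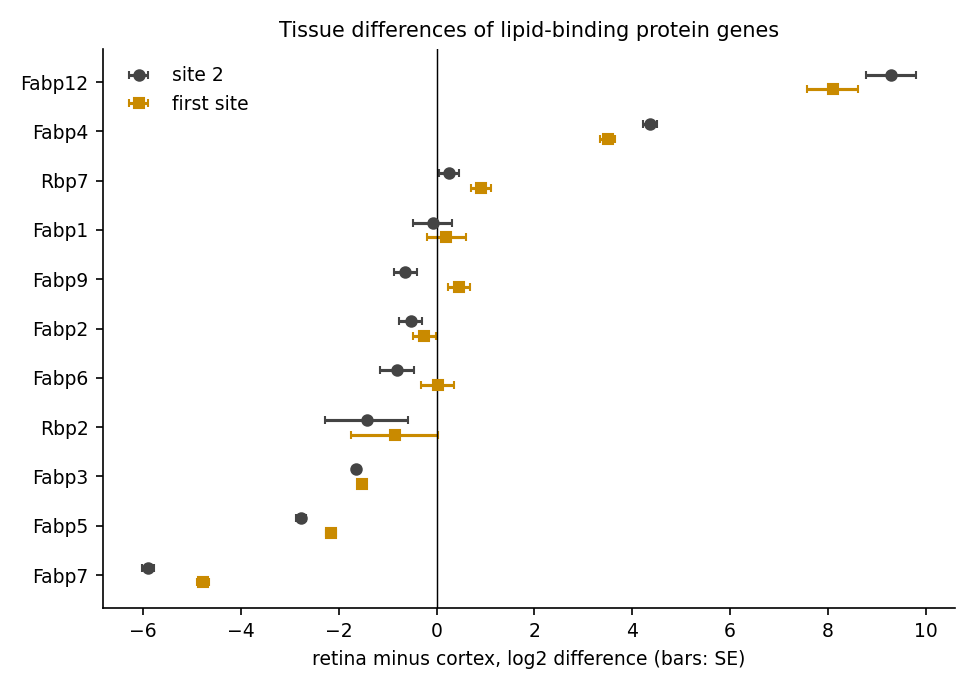
Retina-minus-cortex log2 difference of the 11 measured lipid binding protein genes at site 2 (circles) and at the first site (squares), with the SE from limma. Fabp12 (9.29 and 8.10) and Fabp4 (4.36 and 3.50) lay towards retina, and Fabp7 (-5.90 and -4.77), Fabp5 (-2.78 and -2.17) and Fabp3 (-1.64 and -1.53) towards cortex.

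In the RefSeq gene order of mouse assembly GRCm38.p6, Fabp12 lies in a cluster on chromosome 3. The nearest protein-coding gene on one side is Fabp4, followed by Fabp9, Pmp2 and Fabp5, and on the other side it is Impa1. The measured genes of this cluster did not share a direction. Fabp12 and its neighbour Fabp4 stood higher in retina, Fabp5 stood higher in cortex and Fabp9 was not called. Fabp7 lies apart from them on chromosome 10.

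Of 13 tested genes that bring fatty acids into cells and activate them, 2 were called higher in retina and 5 higher in cortex at site 2, and 2 and 6 at the first site. Of all probes, 11.1% and 13.5% were so called at site 2, and 11.9% and 13.0% at the first site. The list's median was -0.97 log2 at site 2 and -0.73 at the first site, against -0.05 and -0.04 over all probes. Acsbg1, an acyl-CoA synthetase of brain, differed by -4.39 and -4.25 log2 (SE 0.21 each, adjusted p in limma 7.1e-13 and 1.1e-12), and Slc27a2, a very long-chain acyl-CoA synthetase, by -1.98 and -2.53. With 0.1 added before the logarithm, Acsbg1 differed by -3.60 at site 2 and Slc27a2 by -1.78 at the first site. Acsl3, a long-chain acyl-CoA synthetase, was higher in retina (1.81 and 1.45), while Acsl4 was not called (-0.12 and -0.68).

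Cd36, a fatty acid translocase, was also called higher in retina (1.45 and 1.59 log2), but the site 2 value rested on 1 array. Retina replicate 2 of site 2 read 3.97 against 0.213 to 0.341 on the other 4, and without it the difference was 0.66 and not called (adjusted p in limma 0.051, and 0.013 to 0.134 over 29 alternatives). The site 2 call also ended with intensities raised to the 25th percentile (adjusted p in limma 0.134), with only the groups compared (0.123) and without any of cortex replicates 1, 2, 4 and 5 of site 2. The first-site call ended with that floor (0.34 log2), with 0.1 added (0.91 log2) and without retina replicate 4 or cortex replicate 1 or 5 of the first site.

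Genes for synthesis, elongation and desaturation of fatty acids were mostly not called. Of 10 tested, 1 was higher in retina and 2 higher in cortex at each site, close to the shares of all probes just given. Elovl4, the elongase that makes very long-chain polyunsaturated fatty acids in photoreceptors, was 5.74-fold higher in retina at site 2 and 6.30-fold at the first site (adjusted p in limma 4.1e-13 and 1.9e-13). Fads2, the delta-6 desaturase, differed by -1.85 and -1.65 log2 and Fasn, fatty acid synthase, by -1.19 and -1.61, both higher in cortex. Fads3 was not called (0.07 and -0.25).

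Fatty acid oxidation genes had 4 of 12 members higher in retina by this rule at both sites, and 1 higher in cortex at site 2 but 0 at the first site. Over all probes 11.1% were higher in retina at site 2 and 11.9% at the first site. Cpt1a, which admits fatty acids to mitochondria, was 6.26-fold higher in retina at site 2 and 5.23-fold at the first site, and Acadm, medium-chain acyl-CoA dehydrogenase, 3.62-fold and 3.63-fold. Decr1 was not called (-0.33 and -0.06). The gene called higher in cortex, Acads, named after its value was seen, differed by -1.73 at site 2 and -0.37 at the first site, and the site 2 count was 0 without cortex replicate 5 of site 2. Among 8 nuclear receptors that respond to lipids, 1 was called, Rara, a retinoic acid receptor (3.13 and 2.72, higher in retina), and Rxrg differed by 0.04 and -0.01. Rara had no usable value on 1 retina array of site 2.

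Of 13 tested transcription factors and pathway genes known to control Fabp7, 1 was called higher in retina at both sites, 4 higher in cortex at site 2 and 3 at the first site, with a median of -0.24 and -0.27 log2. Over all probes 11.1% were called higher in retina and 13.5% higher in cortex at site 2, and 11.9% and 13.0% at the first site. Pax6, which activates Fabp7 in cortical radial glia and is also made by retinal amacrine and ganglion cells, was 10.3-fold higher in retina at site 2 and 9.25-fold at the first site (adjusted p in limma 1.2e-16 and 2.6e-16). Nfib and Nfix, of the nuclear factor I family, were higher in cortex, Nfib by 9.42-fold and 4.78-fold and Nfix by 6.07-fold and 4.09-fold. The second stretch in capitals of the promoter printed above fits the shortened palindrome of that family by its letters. The first is the reverse complement of the RBPJ core. Rbpj was not called (0.13 and -0.19, adjusted p in limma 0.198 and 0.070). Binding to either stretch was not measured.

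Of 10 radial glia genes, 2 were called higher in retina and 2 higher in cortex at each site. The shares of all probes so called were 11.1% and 13.5% at site 2, and 11.9% and 13.0% at the first site. The median of the list was 0.10 log2 at site 2 and -0.07 at the first site. Prom1, which photoreceptors also express, and Pax6 led towards retina (5.02 and 5.21 for Prom1), and Tnc (-2.17 and -2.32) and Emx2 (-1.90 and -3.58) towards cortex. With intensities raised to the 25th percentile Emx2 differed by -0.38 at site 2, where its call ended, and by -1.27 at the first site. Slc1a3, a glutamate transporter of radial, astroglial and Müller cells, read 3.98 to 4.64 in retina and 3.50 to 4.69 in cortex at site 2, and was not called at either site (0.06 and -0.30). The summed intensity of the 10 genes was 74.9 to 80.8 in retina and 49.4 to 67.2 in cortex at site 2, and 71.0 to 76.2 in first-site retina and 47.1 to 54.0 in first-site cortex.

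Müller glia genes, of the radial glia of the mature retina, had 4 of 7 called higher in retina and 0 higher in cortex at each site, where 11.1% of all probes were called higher in retina at site 2 and 11.9% at the first site. Car2, carbonic anhydrase 2, led (4.32 and 4.00 log2), followed by Dkk3 (2.40 and 2.60). Of 7 astrocyte genes, 4 stood higher in retina by a call at both sites, and 2 at site 2 and 1 at the first site higher in cortex, beside the same shares of all probes. Slc1a2 (2.50 and 3.19, and 2.46 at the first site with intensities raised to the 25th percentile) and Aldoc (2.08 and 1.71) led towards retina and Gja1, connexin 43, towards cortex (-2.66 and -2.92), while Gfap was not called (-0.19 and -0.15).

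All 4 measured cycling genes were called higher in cortex at both sites. Among all probes, 13.5% were so called at site 2 and 13.0% at the first site. Mki67 differed by -4.84 and -5.60 log2, Pbk, a mitotic kinase, by -4.72 and -5.62, and Cdk1 by -4.49 and -4.32. With intensities raised to the 25th percentile Mki67 stood at -4.06 and -4.09 and Pbk at -3.74 and -3.55, and with 0.1 added Cdk1 stood at -3.71 and -3.62. Tbr1, a factor of deep-layer neurons, differed by -3.49 and -3.61, Neurod2 by -2.78 and -2.49 and Neurod6 by -6.27 and -6.15. Sox10, also expressed in the oligodendrocyte lineage, was the 1 measured gene listed for peripheral and ensheathing glia. It was higher in cortex (-2.02 and -3.14, and -2.45 at the first site with 0.1 added).

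Of 4 measured hormone genes of the pituitary, Gh, growth hormone (-7.15 and -7.56 log2), and Cga (-3.03 and -3.67) were called higher in cortex, and Prl (0.04 and -0.54) and Pomc were not called. Among all probes, 13.5% were called higher in cortex at site 2 and 13.0% at the first site. With intensities raised to the 25th percentile Gh differed by -4.80 and -5.87 and Cga by -1.88 and -2.19. The summed intensity of the 4 was 0.899 to 0.985 in retina and 6.0 to 8.24 in cortex at site 2, and 0.849 to 0.981 in first-site retina and 12.2 to 14.2 in first-site cortex. The part of these cells, or of any other cell type, in the Fabp7 values was not tested.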

How the data were processed

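The deposited table holds 1 linear intensity per probe and array for 20 arrays, matched to samples by column name. Target was labelled with the CodeLink assay kit, per the labels. How the authors scanned, background-corrected and scaled the deposited intensities is not given in the sources used here. Of them 143 were at or below 0 and 2080 were blank. The titles code the retina pool MRP1, and tissue was taken from the source labels. No 2 arrays held identical values.

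Intensities were log2-transformed, and those at or below 0 were treated as missing. Array medians differed by at most 0.059 log2, and no further normalization was applied. The bright ends were less alike, with array maxima of 166 to 272 at site 2 and 98.4 to 125 at the first site. A probe needed a value on at least 3 of 5 arrays in each group (10339 of 10500). One mean per group was fitted to all 20 arrays with limma 3.58.1 in R 4.3.3 (lmFit, eBayes, 16 residual and 2.16 prior degrees of freedom), after a test on simulated data. Calls needed a Benjamini-Hochberg adjusted p under 0.05 over all probes and a 2-fold difference.

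Symbols came from the platform annotation: 9378 probes had 1, 8 had several and 1114 had none. The brightest probe stood for a gene. Python 3.11.15 with numpy 2.4.6, pandas 2.3.3 and matplotlib 3.10.9 drew plots and searched promoter sequences from RefSeq, which matched Fabp7.

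The members, gene lists and tests were chosen with earlier results of these data known. Named genes were the lipid binding protein list in full. Of each other list they were the 2 genes with the largest mean difference in each direction among those called at both sites, and the 1 nearest to 0. Also named were the 5 most and 3 least correlated genes of each member and its neighbours in mean difference. Alternatives were quantile normalization, median centring, floors at the 5th and 25th percentiles, a pseudocount of 0.1, other filters, fits of only the groups compared, a replicate block, and leaving out each array. Arrays of the same replicate number did not deviate together (r -0.11 to 0.08 over 30 pairs).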

Additional observations from a re-analysis of the deposited data

Results flagged for a closer look

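A fitted difference of tissue differences between the sites was called in limma for 6 of the 70 named genes. For Fabp7 it was -1.13 log2 (adjusted p = 0.0021). For photoreceptor genes it was 3.30 for Sag (adjusted p = 4.9e-04), 2.66 for Rp1 (0.012) and 1.55 for Tulp1 (0.0078). It was 1.68 for Emx2 (adjusted p = 0.035) and 1.12 for Sox10 (0.0058). Positive values mean that the retina-minus-cortex difference was more positive at site 2.

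A single array lay far from the other 4 of its group in 23 of 280 groups examined. Chance gives about 1 in 20, but the groups share the same arrays and are not independent, so no excess is read. Fabp7 was one of the 23: first-site cortex replicate 5 read 104, against 65.1 to 72.8 on the other 4. Without it the tissue difference at the first site was -4.65 log2, and the difference between the sites was -1.26.

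Of the 23, 10 were cortex replicate 5 of site 2. It read high for Csrp2 (5.48), Myc (7.13), Fabp6 (1.51), Rbp2 (2.89) and Elovl4 (12.7), and low for Slc27a2 (0.312), Acadm (2.03), Slc1a2 (0.0971), Car2 (1.25) and Tbr1 (2.19). On that array Fabp7 read 117 and Fabp12 0.0592, and neither stood apart.

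At site 2 in retina, Mki67 (0.0886) and Rbp2 (0.0193) were lowest and Cd36 (3.97) was highest on replicate 2. Tulp1 was lowest on replicate 3 (57.1), Acsl3 highest on replicate 5 (51.7) and Sox10 highest on replicate 4 (0.497). In cortex of site 2, Rara was lowest on replicate 4 (8.45). In first-site retina, Nr2f1 was highest (1.47) and Adipoq lowest (0.0257) on replicate 1. In first-site cortex, Reep6 was lowest on replicate 5 (0.171), Fads2 on replicate 2 (4.23) and Rara on replicate 1 (9.68).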

How the results depend on the processing

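No called difference changed direction. Fabp7 remained higher in cortex at 51.8-fold to 62.0-fold at site 2 (-5.69 log2 after quantile normalization) and 25.1-fold to 30.8-fold at the first site over 30 alternatives, and Fabp12 higher in retina at 168-fold to 814-fold and 156-fold to 348-fold. At site 2 Fabp12 was 7.39 with intensities raised to the 25th percentile (the floor) and 7.71 with a pseudocount. Its cortex difference between sites lost the call with that floor (-0.49), with the pseudocount (-0.93) and in a fit of those groups alone (-1.70, adjusted p in limma 0.069). The Fabp7 difference of tissue differences fell under 2-fold after quantile normalization (-0.75), where its uncalled cortex site difference was 0.09. The uncalled Fabp12 difference of tissue differences turned to -0.01 with the floor. The cause was not tested. Probes called between sites in retina (645) numbered 312 with the floor, 255 with the pseudocount and 367 among bright probes. In cortex (745) they numbered 396, 370 and 444. For the difference of tissue differences (75) they were 35 with the pseudocount and 56 to 121 with 1 array left out, the most without cortex replicate 5 of site 2. With a replicate block the Fabp7 value was -1.13 (adjusted p in limma 0.0015) and that call and the other members' calls were kept. The block changed the numbers of probes called to 63 for this contrast, 639 in retina and 740 in cortex. For other genes and lists, 5807 of 5854 alternative values kept their side of the threshold or stayed within 1.5 times of their count. Dim intensities limit Fabp12 in cortex, since no detection calls were used.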
